A study of Mus musculus with 6 samples.

Results

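The genes described here are regulators of the primed epiblast and of the first steps out of pluripotency: Otx2, Fgf5, Pou3f1, T, Sox3, Zic2, Foxd3, Sox1 and Wnt3. They were chosen by name, as probesets annotated with 1 of these 9 symbols. Of the 9, 8 had a probeset with a single symbol, 1 probeset each, among the 19938 genes compared, and T (Brachyury) was not analysed here. RNA came from mouse embryonic stem (ES) cells grown on gelatin and separated by fluorescence-activated sorting into 2C::tomato+ (positive) and 2C::tomato- (negative) cells, with 3 arrays of each. The titles mark all 6 samples as WT. The treatment text, shared by all 6, speaks of 4OHT for deletion of Kdm1a and of vehicle, without saying which of them these samples received, so the groups are not known to differ in it. The labels name no ES line or clone. They do not tell whether replicates were separate cultures, and p-values therefore cover the spread of these arrays alone, part of which may be technical. In published work the reporter is driven by the promoter of an endogenous retrovirus that is active in the two-cell embryo, so it marks cells by that promoter and not by a lineage.

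As background, ES cells in the naive state resemble the epiblast of the blastocyst before implantation. On leaving that state they pass through a formative and then a primed state like that of the epiblast after implantation, in which OTX2 and POU3F1 redirect the binding of the pluripotency factor OCT4 and the growth factor gene Fgf5 comes on. Primed cells then start either neural development, marked by Sox1, or the primitive streak, marked by T and induced by Wnt3. Several of these genes are also transcribed in part of an ES culture, since such cultures are mixtures of cells nearer to and farther from exit.

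Values are log2 expression as normalized by the authors, so that 1 unit is a doubling, and a difference is always positive minus negative. Levels of separate probesets are not set against each other, since probes differ in brightness. Same-numbered positive and negative arrays deviated from their group means together across all genes, with r = 0.55 for number 1, 0.55 for number 2 and 0.46 for number 3, so each gene was read both by group and by same-numbered pair. Both arrays of number 2 stood apart from the others: they reached r = 0.982 and 0.987 at most with another array, in positive and negative cells, against 0.995 for each of the other 4 arrays. In these sorted populations, fewer cells expressing a gene and less RNA per cell cannot be told apart.

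Otx2 and Foxd3 were the members that varied most between arrays, and they did so by replicate number. Otx2, the homeobox factor of the primed epiblast and later of the anterior brain, and Foxd3, a forkhead factor needed for the epiblast and the neural crest, share the pattern. Sox1 was the member whose groups did not overlap, with the positive arrays lower, as in 1426 of all genes (7.15%). Reference promoter windows of these 3 genes, from 250 bases before to 50 after a RefSeq start site, are shown so that the shared and the separate patterns can be set beside the sequences. They are from RefSeq, build GRCm38.p6, 5′ to 3′ on the gene's strand, and capitals mark matches to any of 6 short motifs searched on both strands. The Otx2 window is chr14:48667595-48667894 on the minus strand, the most upstream of its 4 windows. The Foxd3 window is chr4:99656049-99656348 and the Sox1 window chr8:12395269-12395568, both on the plus strand.
Otx2: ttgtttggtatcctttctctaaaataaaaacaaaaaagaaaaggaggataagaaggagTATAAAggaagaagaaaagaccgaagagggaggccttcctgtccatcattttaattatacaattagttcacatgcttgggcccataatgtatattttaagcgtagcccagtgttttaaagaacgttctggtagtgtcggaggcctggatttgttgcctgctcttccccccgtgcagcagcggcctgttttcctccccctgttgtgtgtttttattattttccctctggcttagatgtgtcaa
Foxd3: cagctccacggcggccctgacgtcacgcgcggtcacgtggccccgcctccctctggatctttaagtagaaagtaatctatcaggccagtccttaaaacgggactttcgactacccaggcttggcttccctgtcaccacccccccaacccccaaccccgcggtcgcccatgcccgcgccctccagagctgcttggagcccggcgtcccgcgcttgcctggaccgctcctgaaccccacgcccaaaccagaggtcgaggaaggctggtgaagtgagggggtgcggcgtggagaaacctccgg
Sox1: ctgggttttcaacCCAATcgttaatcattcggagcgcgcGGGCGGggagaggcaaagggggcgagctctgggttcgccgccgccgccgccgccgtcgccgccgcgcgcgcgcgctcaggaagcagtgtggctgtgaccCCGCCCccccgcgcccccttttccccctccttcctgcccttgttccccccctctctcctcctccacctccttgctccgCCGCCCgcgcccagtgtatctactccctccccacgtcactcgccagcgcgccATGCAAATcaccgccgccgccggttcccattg

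The motifs were TAATCC, a bicoid-type homeodomain site, ATGCAAAT, the octamer of POU factors, ACAAAG, a core that SOX factors bind, and 3 general promoter elements: the CCAAT box, the TATA box spelled TATAAA, and the GC box spelled GGGCGG. Windows of the same length numbered 32851, and they held these letters in 7.06%, 1.74%, 18.7%, 37.4%, 13.6% and 35.7% of cases, in that order. The Otx2 window held TATAAA at position -192 from the start and no other of the 6. The Foxd3 window held none of them. The Sox1 window held ATGCAAAT at position 19 after the start, CCAAT at -237 and GGGCGG or its reverse complement at -211, -112 and -34. The Otx2 window had 41.7% G and C with 6 CG pairs, against 65.7% with 25 in the Foxd3 window and 70.7% with 37 in the Sox1 window, where the median over all windows was 52.7% with 7. Since the Foxd3 window held none of the 6 motifs, no motif could be shared with it. The Otx2 windows not printed had 47.7%, 51.0% and 53.7% G and C, nearer to the median. The first of them held the reverse complement of CCAAT at -70, the second that of TAATCC at -211, and the last none of the 6. A match is a description of the letters and not of binding. Of the 9 members, 6 had a window in the table.

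None of the members differed between the sorted groups by the limma test. An adjusted p under 0.05 was reached by 0 of the 8 measured members and by 0 of all 19938 genes (0%), and blocking on the replicate number in limma left both counts at 0. An unadjusted p under 0.05 was found for 878 genes (4.4%), among them 1 member, Sox1. With the block it was found for 2394 (12%), among them 2 members, Sox1 and Otx2. Median differences were -0.08 over the 8 members and -0.04 over all genes.

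**Figure D1:**
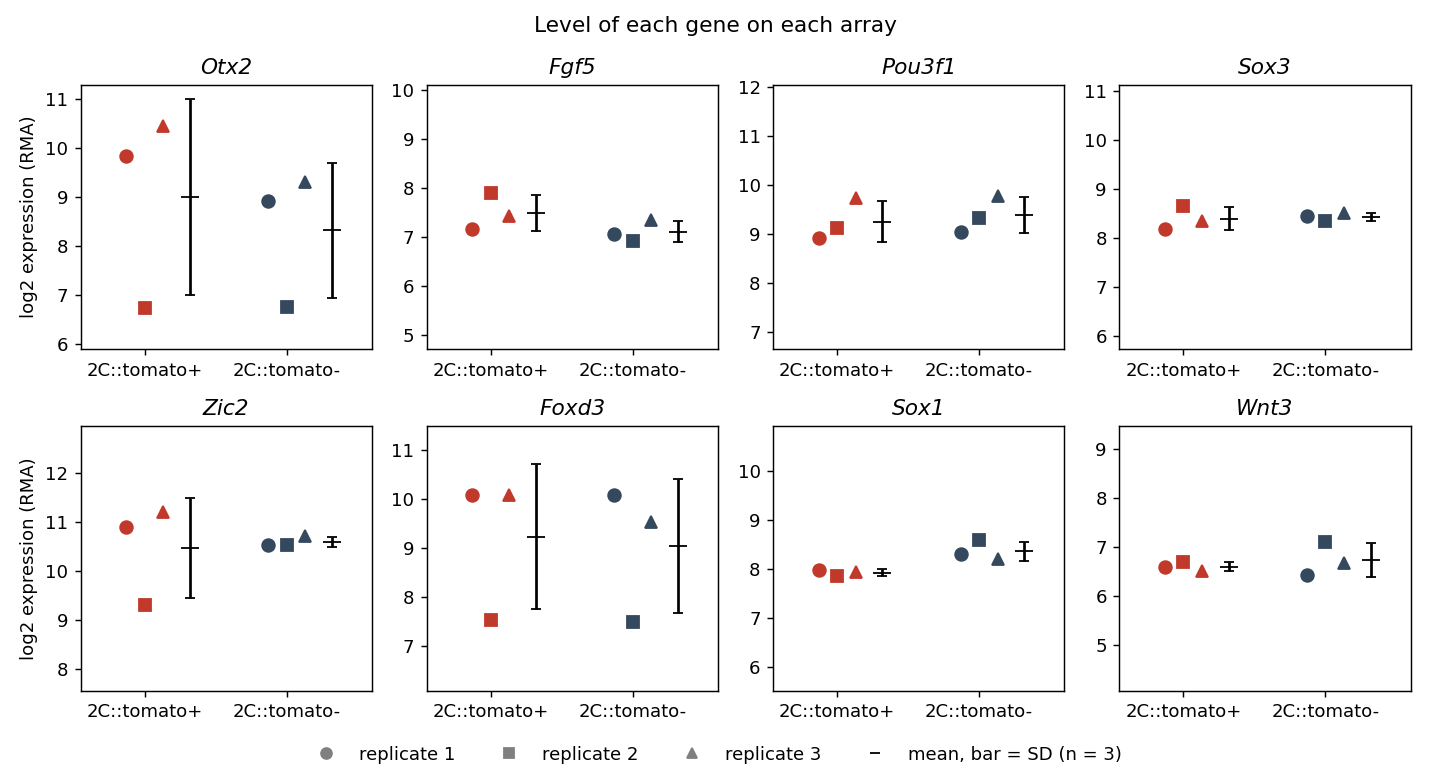
Log2 expression (RMA) of the 8 measured genes on each array, 2C::tomato+ left and 2C::tomato- right in each panel, each panel spanning the same height; symbols mark the replicate number, and the black bar is the mean ± SD over 3 arrays. Otx2 and Foxd3 are lowest in replicate 2 of both groups, Zic2 is low at 9.30 in positive replicate 2 alone, and the 3 positive arrays of Sox1 lie under the 3 negative ones.

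Otx2 stood at 9.84, 6.73 and 10.46 in positive arrays 1, 2 and 3, against 8.92, 6.75 and 9.31 in negative arrays 1, 2 and 3. The array of number 2 was the lowest of each group, and at that number the sorted groups were almost level. The groups overlapped, with means of 9.01 ± 2.00 in positive and 8.33 ± 1.38 in negative cells (SD, n = 3 each) and a difference of 0.68 (SE 1.06, limma adjusted p = 0.956). By pair the difference was 0.91, -0.02 and 1.14. The same difference had an SE of 0.23 with the replicate number as a block (limma adjusted p = 0.401), since the spread within each group was mostly one between numbers. Without both arrays of number 2 it was 1.03 (SE 0.22, limma adjusted p = 0.232), with both positive arrays above both negative ones. Leaving out both arrays of number 1 or of number 3 gave 0.56 and 0.45, in that order. It turned to -0.11 when negative array 2 alone was left out and to -0.05 when positive array 3 was, but these fits have no block and leave the numbers unbalanced between the groups, so the gap between numbers enters the difference.

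Foxd3 stood at 10.08, 7.52 and 10.07 in positive arrays 1, 2 and 3, against 10.08, 7.48 and 9.53 in negative arrays. The sorted groups nearly matched at numbers 1 and 2, and the positive array was higher at number 3. The difference was 0.19 (SE 0.88, limma adjusted p = 0.984), with pairs at -0.0018, 0.04 and 0.54. With the replicate block its 95% interval ran from -0.14 to 0.53, and without the block from -1.89 to 2.28. A change of 2-fold lay outside the first and inside the second, so the reading depends on the block. Leaving out a same-numbered pair gave values from 0.02, without number 3, to 0.29, without number 1. Leaving out 1 array, which unbalances the numbers, moved the value between -0.58, without negative array 2, and 1.05, without positive array 2.

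The shift of replicate 2 was tested through the replicate number as a term beside the group, which asks whether same-numbered arrays move together and singles out no number. By this limma F test, with adjustment over all genes, 3 of the 8 members passed, against 1127 of 19938 genes (5.65%): Foxd3 (adjusted p = 0.0119), Otx2 (adjusted p = 0.0162) and Pou3f1 (adjusted p = 0.0379). Which number differs was read from the values and not tested, since it was known that number 2 stands apart. Replicate 2 of Otx2 lay below the mean of replicates 1 and 3 by a shift of -3.42 in positive and -2.37 in negative cells. For Foxd3 the shift was -2.55 in positive and -2.33 in negative cells. There is no detection call for the low arrays, and RMA draws dim values together, so the sizes of these shifts may be understated. Over all 19938 genes, Otx2 had the most negative mean shift of replicate 2 and Foxd3 the third most negative, in the deposited values and under both other scalings tried. Both replicate 2 arrays were at least 1 log2 unit lower for 2 of 8 members, these 2, and for 96 of all genes (0.481%). They were the lowest of the 6 arrays for 2 of 8 members and 4354 genes (21.8%). The F test rests on few arrays: without positive or negative array 1 it called 0 genes, and the adjusted p was 0.0638 or 0.0674 for Otx2 and 0.0526 or 0.0585 for Foxd3.

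**Figure D2:**
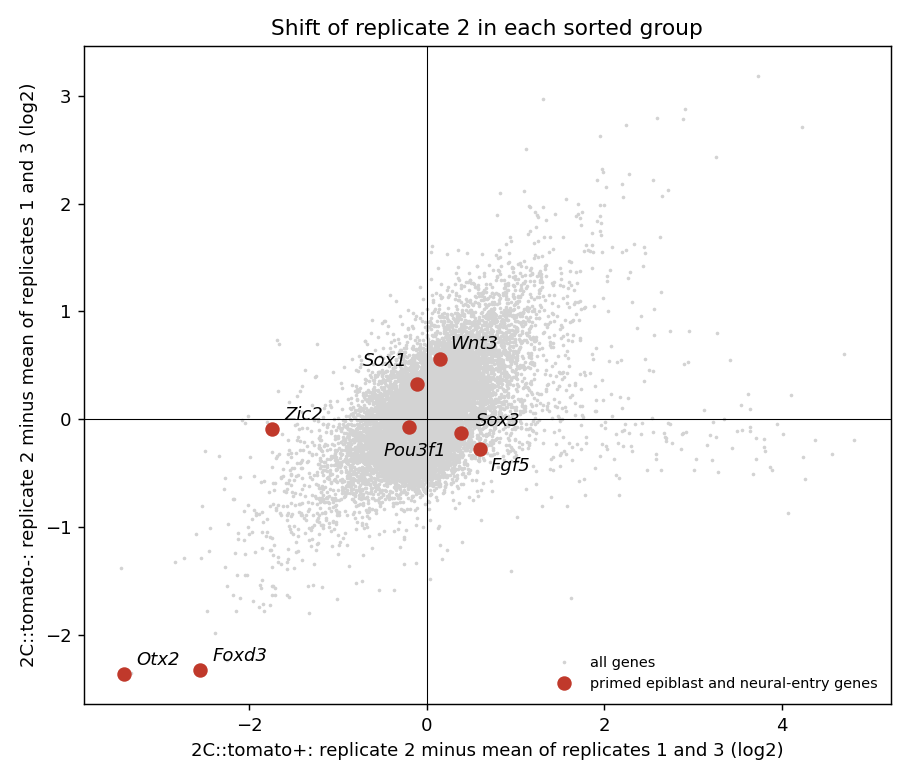
Log2 shift of replicate 2, taken as its level minus the mean of replicates 1 and 3, in 2C::tomato+ cells (horizontal) and 2C::tomato- cells (vertical); grey points are all 19938 genes and red points the 8 measured members. Otx2 and Foxd3 lie at the far lower left, Zic2 is shifted by -1.74 in positive cells and -0.09 in negative cells, and the other 5 lie within 0.6 of 0 on both axes.

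Pou3f1, which encodes the POU factor OCT6 of the primed epiblast and of neural precursors, followed the replicate number in another way. It stood at 8.92, 9.12 and 9.73 in positive arrays 1, 2 and 3, against 9.04, 9.34 and 9.77 in negative arrays. In both groups number 3 was the highest and number 1 the lowest, with number 2 between them. All 3 pairs were slightly lower in positive cells, by differences of -0.12, -0.21 and -0.04, as in 4734 of all genes (23.7%). The mean difference was -0.13 (SE 0.26, limma adjusted p = 0.970). With the block the 95% interval ran from -0.35 to 0.10. Its call in the replicate test was lost without any 1 of positive arrays 1 and 3 and negative arrays 1 and 3 (adjusted p 0.181 to 0.266 in limma).

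Zic2, a zinc finger factor of the epiblast and the early neural plate, departed in a single array. It stood at 10.89, 9.30 and 11.20 in positive arrays 1, 2 and 3, against 10.52, 10.52 and 10.71 in negative arrays. Positive array 2 was the lowest of the 6, while positive arrays 1 and 3 were above all negative arrays. The shift of replicate 2 was -1.74 in positive and -0.09 in negative cells, at least 1 log2 unit apart, as for Otx2 and 539 of all genes (2.7%). With 1 array behind each of these shifts, their difference has no test. Zic2 differed by -0.12 (SE 0.46, limma adjusted p = 0.982), by 0.46 without positive array 2 and by 0.43 without both arrays of number 2. Zic5, its neighbour among the protein-coding genes of RefSeq and also a zinc finger gene, stood at 10.98, 9.24 and 10.99 in positive arrays, against 10.85, 10.30 and 10.64 in negative arrays. It was likewise lowest in positive array 2, but its negative array 2 was the next lowest. The shift of replicate 2 for Zic5 was -1.74 in positive and -0.45 in negative cells.

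Fgf5, the growth factor that marks the epiblast after implantation, departed in the same array in the other direction. It stood at 7.16, 7.89 and 7.43 in positive arrays 1, 2 and 3, against 7.06, 6.92 and 7.34 in negative arrays. Positive array 2 was the highest of the 6, and the other 5 lay within 0.51 of each other. All 3 pairs were higher in positive cells, by 0.09, 0.97 and 0.09, as in 3015 of all genes (15.1%). The mean difference of 0.38 (SE 0.21, limma adjusted p = 0.910) was 0.19 without positive array 2, 0.09 without both arrays of number 2 and 0.02 with array weights. Positive array 2 was also the array with the most two-cell transcripts. The median level of 6 two-cell-like markers (Zfp352, Tdpoz3, Usp17la, Tmem92, Arg2 and Pramel6) was 8.77, 11.85 and 7.43 in positive arrays 1, 2 and 3, against 5.75, 5.72 and 5.65 in negative arrays. The part of this in the Fgf5 and Zic2 values was not tested.

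Sox1, a SOX factor among the earliest markers of the neural plate, was the member with non-overlapping groups. It stood at 7.98, 7.85 and 7.94 in positive arrays 1, 2 and 3, against 8.30, 8.58 and 8.21 in negative arrays. Every positive array was below every negative array, as in 1 of 8 members and 1426 of all genes (7.15%); no member was higher without overlap, against 813 genes (4.08%). The means were 7.93 ± 0.07 in positive and 8.36 ± 0.19 in negative cells (SD, n = 3 each), and the difference of -0.44 (SE 0.13) amounts to 0.738-fold. It did not pass over all genes (limma adjusted p = 0.910, and 0.399 with the replicate block), at an unadjusted p of 0.0120 from the limma fit. The pairs differed by -0.31, -0.73 and -0.27, and leaving out 1 array kept the difference between -0.51 and -0.33. It was -0.28 with array weights and -0.29 without both arrays of number 2.

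Sox3, the X-linked relative of Sox1 that is expressed in the epiblast and neural precursors, stood at 8.19, 8.65 and 8.34 in positive arrays 1, 2 and 3, against 8.44, 8.34 and 8.51 in negative arrays. The groups overlapped and positive array 2 was the highest. The difference was -0.04 (SE 0.14, limma adjusted p = 0.982), with a 95% interval from -0.38 to 0.30 and pairs at -0.25, 0.31 and -0.17. The shifts of replicate 2 in positive and negative cells ran opposite ways for Sox3, Sox1 and Fgf5, as for 6085 genes (30.5%). SOX genes share a conserved DNA-binding domain, and whether probes of Sox1 and Sox3 bind each other's transcripts was not tested. Wnt3, the ligand that starts the primitive streak, stood at 6.58, 6.69 and 6.50 in positive arrays, against 6.42, 7.10 and 6.67 in negative arrays. These levels lay near the array medians of 6.95 to 7.04, and Wnt3 has no detection call. Its replicate 2 arrays were the highest 2 of the 6, as in 1 of 8 members and 3551 genes (17.8%), and negative array 2 was highest of all. The difference of -0.14 (SE 0.18, limma adjusted p = 0.940) was 0.044 without negative array 2.

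**Figure D3:**
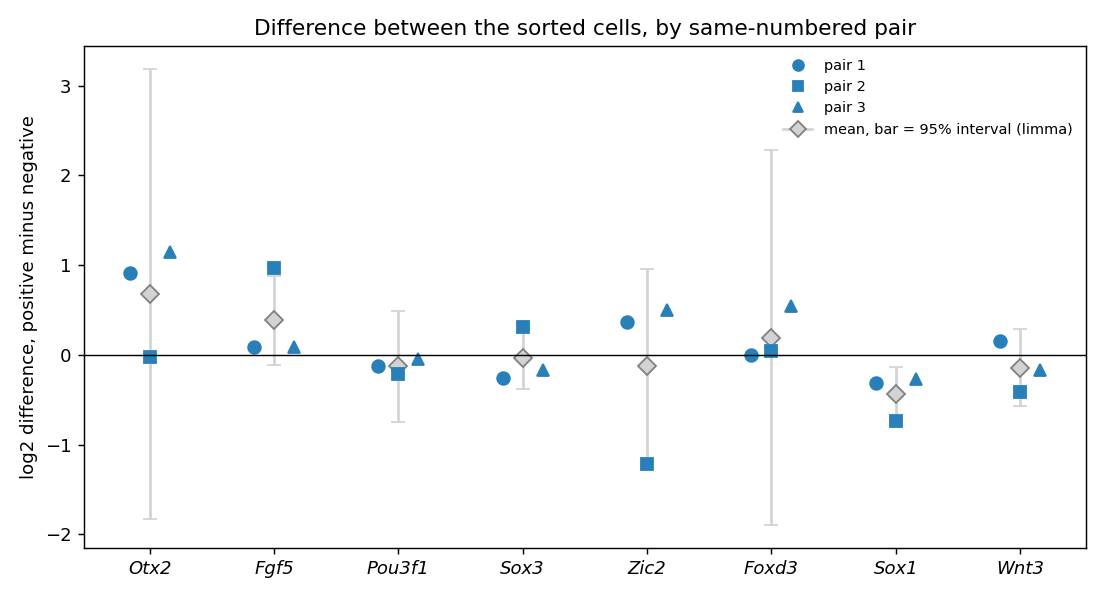
Log2 difference, positive minus negative, of the 8 measured genes in each same-numbered pair (blue symbols), with the mean and its 95% interval from limma without the block in grey. The intervals of Otx2 and Foxd3 are wide, the pairs of Sox1 are all below 0, and pair 2 stands away from pairs 1 and 3 for Zic2 at -1.22 and for Fgf5 at 0.97.

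The genes whose profile over the 6 arrays was nearest to that of Otx2, by the root mean square distance between log2 profiles centred on each gene's mean, were Glod5 (0.42), Foxd3 (0.50), Ifitm1 (0.55), Ccdc141 (0.59) and 4930591A17Rik (0.61). Foxd3 was thus the second nearest of all genes, and over the 6 arrays the log2 levels of Otx2 and Foxd3 correlated with r = 0.95, given as a description in which the number 2 arrays carry most of the range. Glod5, a glyoxalase-domain gene, stood at 10.14, 7.08 and 10.67 in positive arrays, against 10.06, 7.89 and 10.41 in negative arrays. Ifitm1, an interferon-induced membrane protein gene, stood at 12.25, 9.96 and 12.63 in positive arrays, against 12.10, 10.54 and 12.55 in negative arrays. Each of these 5 genes was lowest in replicate 2 of both groups, which follows from choosing them by their likeness to Otx2 on the same arrays. The nearest to Fgf5 were Tnrc6b (0.077), Nanos1 (0.096), Tug1 (0.099), Plekhm3 (0.10) and Obox5 (0.10). All 5 were highest in positive array 2, which again follows from the choice, and none of them is a member or on the epiblast list.

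**Figure D4:**
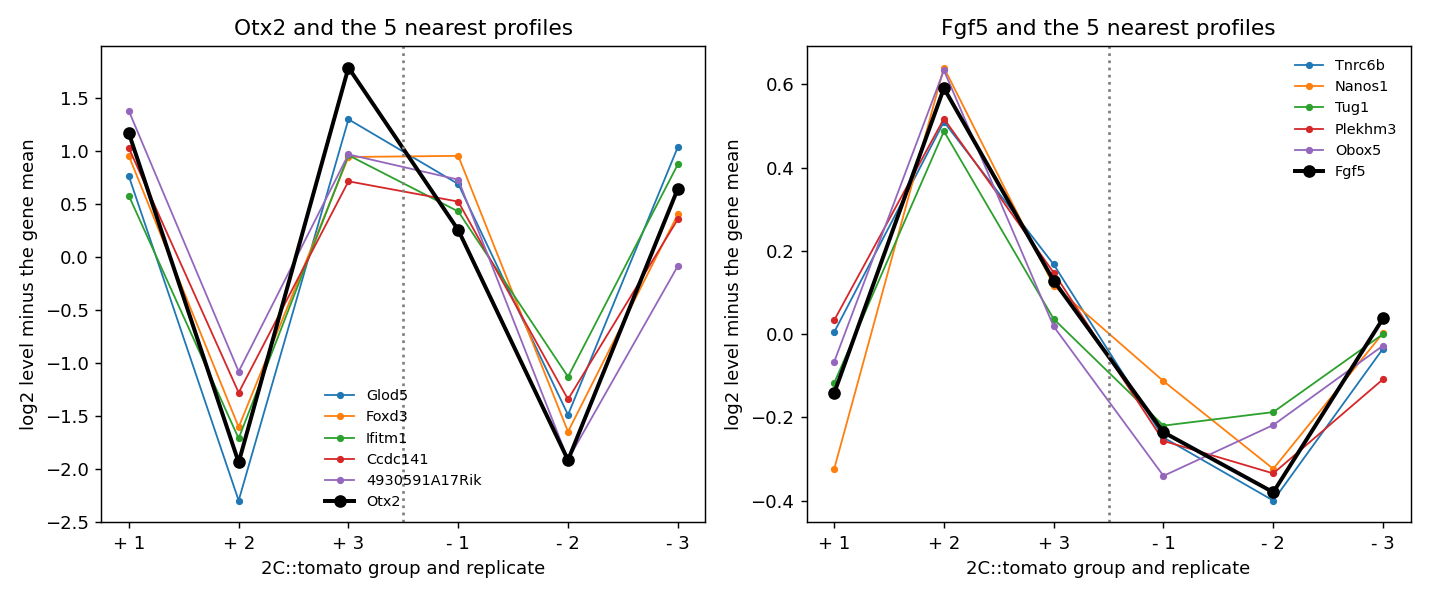
Log2 level minus the gene's mean on each array, 2C::tomato+ arrays 1 to 3 left of the dotted line and 2C::tomato- arrays 1 to 3 right of it, for Otx2 (left panel) and Fgf5 (right panel) in black with their 5 nearest profiles in colour. The Otx2 group dips at number 2 in both sorted groups, and the Fgf5 group peaks in positive array 2.

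Other genes of the formative and primed epiblast, 19 measured of 20 listed, were read for the same patterns. Between positive and negative cells none passed in either direction in limma (0 higher and 0 lower, with or without the block, 2 of 19 at an unadjusted p under 0.05, beside 4.4% of all genes). Of the 19, 8 were higher and 11 lower, with a median difference of -0.09, where 60.2% of all genes were lower and the median was -0.04. Without both arrays of number 2, 12 were higher and 7 lower, where 53.7% of all genes were lower. Fgf15, a growth factor gene of the early neural tube, had the largest difference upward, at 8.74, 8.22 and 8.57 in positive arrays against 8.0, 7.65 and 8.02 in negative arrays. Cdh2, N-cadherin, had the largest downward, at 7.88, 7.73 and 7.87 in positive arrays against 8.17, 8.81 and 8.36 in negative arrays. The groups of both did not overlap, and neither passed (limma adjusted p = 0.910 for each). Of the 19, 1 was higher and 2 were lower without overlap, beside 4.08% and 7.15% of all genes.

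In the replicate test 7 of these 19 genes passed the limma F test, beside 5.65% of all genes, and for 8 of 19 the number 2 arrays were the 2 lowest, beside 21.8%. Of the 7, all but Fzd2 had both number 2 arrays lowest. Pim2, a survival kinase gene, stood at 11.76, 10.14 and 12.29 in positive arrays, against 11.46, 10.07 and 12.16 in negative arrays (adjusted p = 0.0119, limma F test). Lef1, a nuclear effector of Wnt signalling, stood at 8.58, 7.27 and 8.96 in positive arrays, against 8.40, 7.19 and 8.74 in negative arrays (adjusted p = 0.0122, limma F test). Grhl2, an epithelial factor of the formative state, stood at 9.95, 8.71 and 10.24 in positive arrays, against 9.31, 8.51 and 9.55 in negative arrays (adjusted p = 0.0238, limma F test). These 3 were low at number 2 in both sorted groups, as Otx2 and Foxd3 were. Fzd2, a Wnt receptor gene, was high there instead, at 7.25, 8.79 and 7.86 in positive arrays, against 7.61, 9.59 and 8.01 in negative arrays (adjusted p = 0.0188, limma F test). These calls too were absent without positive or negative array 1, where the F test called 0 genes.

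**Figure D5:**
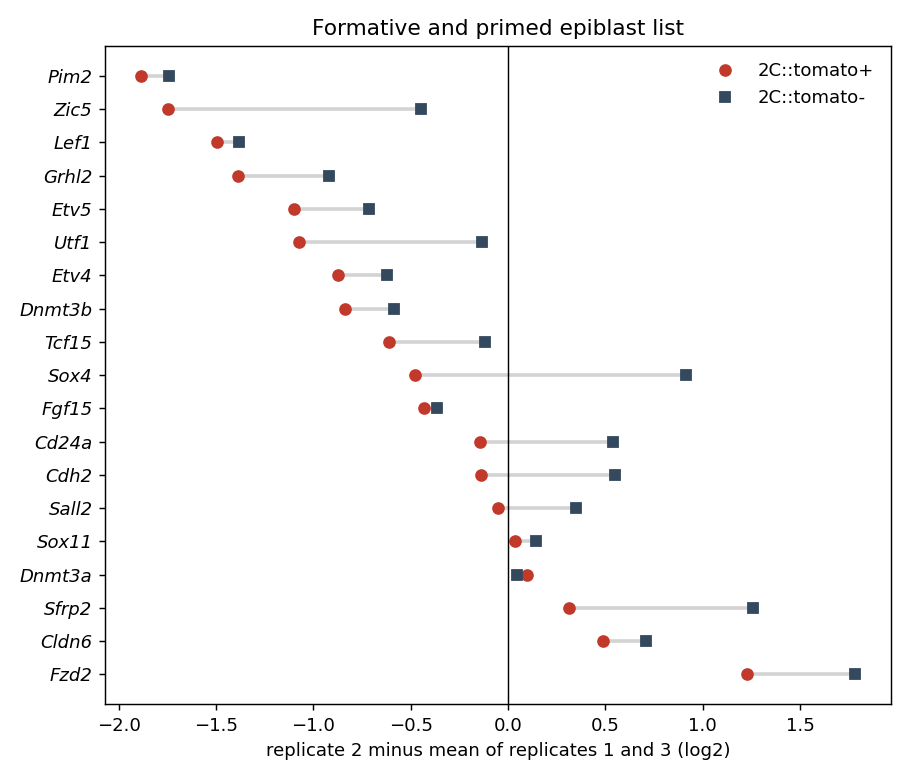
Log2 shift of replicate 2, its level minus the mean of replicates 1 and 3, for the 19 measured genes of the formative and primed epiblast list in 2C::tomato+ cells (red circles) and 2C::tomato- cells (dark squares). Pim2 and Lef1 are shifted below -1.3 in both groups, Fzd2 above 1.2 in both, and Zic5 and Utf1 mainly in positive cells.

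Neural progenitor genes, 17 measured of 18, were lower in positive cells for 15 and higher for 2, with a median difference of -0.20 and 4 of 17 lower without overlap, beside 60.2% and 7.15% of all genes. The 4 were Pou3f2, Pou3f3, Lhx5 and Six3. Their probesets were dim, with levels between 5.43 and 7.14, where array medians lay between 6.95 and 7.04, and they have no detection call. Limma called 0 of them in either direction, with or without the block, and 2 of 17 had an unadjusted p under 0.05, beside 4.4% of all genes. Without both arrays of number 2, 14 were lower and 3 higher, with a median of -0.18, where 53.7% of all genes were lower. Primitive endoderm markers were lower for 7 of 8 (median difference -0.37), fibroblast markers for 7 of 10 (-0.28) and trophoblast markers for 4 of 6 (-0.22). ES cell markers were lower for 7 of 10 (-0.13), and all 6 two-cell-like markers were higher (3.51). Shares of 7 of 10 and 4 of 6 are near the 60.2% of all genes. Without number 2 the first 4 of these lists were lower for 8 of 8 (-0.53), 8 of 10 (-0.41), 5 of 6 (-0.16) and 7 of 10 (-0.06), in that order. Of the 17 neural progenitor genes, Olig2, a factor of oligodendrocyte and motor neuron precursors, had the largest difference, -0.94. It stood at 8.54, 8.24 and 9.35 in positive arrays against 8.99, 10.13 and 9.83 in negative arrays. Msi1, an RNA-binding protein gene of neural precursors, stood at 8.90, 10.16 and 8.79 in positive arrays, against 8.98, 11.05 and 9.18 in negative arrays, and Nes, which encodes nestin, at 8.35, 9.12 and 8.40 against 8.07, 9.20 and 8.34. Both were highest in the number 2 arrays and passed the replicate test (adjusted p = 0.0210 and 0.0313, limma F test). They were the only 2 of the 17 to pass, beside 5.65% of all genes. For 4 of the 17 the number 2 arrays were the highest 2 and for 4 the lowest 2, beside 17.8% and 21.8% of all genes. Six3, a forebrain factor, differed by -0.32 and Irx3, a neural tube factor, by -0.24.

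Primitive streak genes, 13 measured of 14, were lower for 11 and higher for 2, with a median difference of -0.16 and 3 of 13 lower without overlap, beside 60.2% and 7.15% of all genes. Limma called 0 of them, with 1 at an unadjusted p under 0.05 (4.4% of all genes). Without both arrays of number 2 again 11 were lower and 2 higher, beside 53.7% lower. Tbx6, a T-box factor of paraxial mesoderm, differed by -0.51 and stood at 6.71, 6.85 and 7.06 in positive arrays, against 7.34, 7.54 and 7.27 in negative arrays. These levels too were near the array medians of 6.95 to 7.04, with no detection call. Snai1, a factor of epithelial to mesenchymal transition, differed by 0.68 and was high in positive array 2, at 9.34, 10.35 and 8.92 in positive arrays against 8.94, 8.89 and 8.73 in negative arrays. Sp5, Eomes and Fst differed by -0.32, 0.22 and -0.04. None of the 13 passed the replicate test.

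Wnt ligands and targets, 15 measured of 16, share Lef1 and Sp5 with the lists above. They were lower for 11 and higher for 4, with a median difference of -0.12, beside 60.2% of all genes lower, and limma called 0 of them, with 0 at an unadjusted p under 0.05. Leaving out both arrays of number 2 gave 10 lower and 5 higher, beside 53.7% lower. Wnt3a, a ligand close to Wnt3, was lower without overlap, at 6.48, 6.53 and 6.47 in positive arrays against 7.18, 6.90 and 6.54 in negative arrays. Its levels lay near the array medians of 6.95 to 7.04, with no detection call. Of the 15 genes, 0 were higher and 2 lower without overlap, beside 4.08% and 7.15% of all genes. Axin2, a feedback inhibitor that Wnt signals induce, was high in positive array 2, at 8.46, 10.18 and 8.68 in positive arrays against 8.37, 8.97 and 8.58 in negative arrays. Notum, a secreted Wnt inhibitor, was low at number 2, at 8.20, 6.60 and 7.44 in positive arrays against 8.12, 6.77 and 7.33 in negative arrays, and it and Lef1 were the 2 of 15 that passed the replicate test, beside 5.65% of all genes.

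Neural crest genes, all 10 measured, were lower for 7 and higher for 3, with a median difference of -0.09, beside 60.2% of all genes lower, and 0 passed in limma, with 0 at an unadjusted p under 0.05. It was 8 lower and 2 higher once both arrays of number 2 were left out, beside 53.7% lower. Snai2, a crest and mesenchyme factor, was higher without overlap, at 7.43, 8.08 and 7.31 in positive arrays against 7.08, 7.24 and 7.15 in negative arrays. Of the 10 genes, 1 was higher and 1 lower without overlap, beside 4.08% and 7.15% of all genes. Msx2, Ets1 and Twist1 were shifted upward by 1.02, 0.81 and 0.41 in positive cells and by 0.82, 0.48 and 0.47 in negative cells, and 0 of the 10 passed the replicate test.

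Markers of other cell types were also read at number 2. The replicate test passed for 3 of 10 fibroblast, 1 of 6 trophoblast, 1 of 10 ES cell and 3 of 8 primitive endoderm markers, beside 5.65% of all genes. Both number 2 arrays were the highest 2 for 17.8% of all genes and the lowest 2 for 21.8%. Fibroblast markers had both highest for 5 of 10, and the median level of the list was 7.12, 7.91 and 6.86 in positive arrays, against 7.55, 7.88 and 7.49 in negative arrays. The 3 that passed were Tagln, Acta2 and Pdgfrb, with mean shifts of replicate 2 of 2.90, 2.85 and 1.40. The mean shifts of Postn, Col1a2 and Col1a1 were 0.47, 0.42 and 0.19. Those of Col3a1, Thy1, Dcn and Lum were -0.32, -0.24, -0.21 and -0.0097, so the rise was not shared by the whole list. Trophoblast markers had both highest for 3 of 6, with medians of 8.04, 8.96 and 7.84 in positive arrays, against 8.06, 9.06 and 8.36 in negative arrays. ES cell markers had both lowest for 4 of 10, with medians of 12.35, 11.83 and 12.50 in positive arrays, against 12.39, 12.24 and 12.56 in negative arrays. Pou5f1, which encodes OCT4, ranged between 12.08 and 12.69 over the 6 arrays, and Lum, a fibroblast proteoglycan gene, between 3.73 and 3.85. Primitive endoderm markers had 2 of 8 lowest and 2 of 8 highest at number 2. The deposited values carry no detection call, and the part of these markers in the Otx2 and Foxd3 shifts was not tested.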

How the data were processed

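RNA from 6 samples was measured on Affymetrix whole-transcript arrays. The deposited values are log2 expression, made by the authors with RMA in Affymetrix Expression Console, per the submitters' processing notes. RMA corrects background, normalizes quantiles and summarises probesets, which draws dim values together. Versions and build: not given in the sources used here. Array medians lay between 6.95 and 7.04.

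Symbols came from the platform annotation, which paired 21789 of 35556 probesets with 1 symbol and 1621 with several; 12146 were not listed. Of the single symbols 21698 matched RefSeq (GRCm38.p6) by identifier and 0 changed. The probeset with the highest mean stood for each of 19938 genes.

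Groups and numbers came from the titles. Differences were tested with limma 3.58.1 in R 4.3.3 (two-sided, Benjamini-Hochberg over all genes, threshold 0.05), and the replicate number with limma's F test beside the group. Errors are SD for levels and SE of the limma fit for differences. The labels do not say what a number marks. Because deviations of all 3 same-numbered pairs correlated above 0.1, the numbers were taken to pair the arrays; numbers 1 and 3 also correlated with each other across the groups, at 0.20. Tests were checked on simulated data.

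Members and lists were chosen with earlier results of these data known. Some genes are on several lists, also beyond Lef1 and Sp5, so the counts of the lists are not independent. Genes were named by a rule: all members, up to 3 genes of each list by difference and 3 by shift of replicate 2, and the 5 profiles nearest to Otx2 and to Fgf5. Zic5, Lum and the other fibroblast markers, and Pou3f2, Pou3f3 and Lhx5, were named after their values were seen. Leaving out both number 2 arrays for list counts, and leaving out numbers 1 or 3 whole, were also chosen then.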

Additional observations from a re-analysis of the deposited data

How the results depend on the processing

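For positive against negative cells, 0 genes passed under all 16 alternatives to the limma fit, including the replicate block (0 genes, smallest adjusted p 0.363), which changed no member's call. Of 120 member differences recomputed, 15 changed sign and none passed. Zic2 turned to 0.21 with array weights and to 0.43 without both arrays of number 2. Array weights also moved Pou3f1 to -0.44, Sox3 to -0.22, Foxd3 to 0.39, Sox1 to -0.28 and Fgf5 to 0.02. Without both arrays of number 2, Sox3 was -0.21, Wnt3 -0.0047, Sox1 -0.29, Otx2 1.03 and Fgf5 0.09. Leaving out number 1 or number 3 whole, tried after seeing the data, turned Sox3 to 0.069 and 0.029, put Wnt3 at -0.29 without number 1, Zic2 at -0.36 and -0.43, Foxd3 at 0.02 without number 3, and Otx2 at 0.45 without number 3. Leaving out 1 array, with no block and so with the numbers unbalanced between the groups, moved Otx2 between -0.11 and 1.82, Foxd3 between -0.58 and 1.05, Pou3f1 between -0.36 and 0.070, Sox3 between -0.17 and 0.065, Wnt3 between -0.30 and 0.044 and Zic2 between -0.49 and 0.46. Fgf5 and Sox1 kept their sign under all of these. The replicate test called 806 to 1369 genes under alternatives that keep all 6 arrays, and 0 to 4571 when 1 array was left out: 0 without array 1 of either group, 156 and 271 without array 3 of the positive and the negative group, and 3341 and 4571 without array 2 of these groups, in that order. Each of these fits has 1 residual degree of freedom among the arrays. When 1 array was left out, the mean shift of replicate 2 ran from -3.42 to -2.37 for Otx2 and from -2.57 to -2.31 for Foxd3. The 2 limits of Otx2 come from leaving out a number 2 array, which leaves the other group's own shift, so they restate the values of the single groups. Alternatives that keep all 6 arrays gave -2.89 to -2.83 for Otx2 and -2.46 to -2.38 for Foxd3. The number of arrays limits all of these values, and dim probesets have no detection call.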
